A study of Drosophila melanogaster with 6 samples.

Results

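The G1/S regulators of the E2F and Rbf network were read in larval eye discs of *Drosophila melanogaster*. The members are *Rbf*, *Rbf2*, *E2f2*, *Dp*, *CycE*, *CycD*, *Cdk4*, *dap*, *mip120* and *mip130*. They were chosen by name, as genes of this network, and not by a filter on their values, but with earlier results of these data known. Each was read where a probe set carries its symbol alone. Of the 10 genes, 9 could be read, among 11982 genes in all. *dap* has no such probe set in the annotation used here and was not analysed here, and *dE2f1* shares its probe set with *Torsin*, so it was not read either. The comparison set *mir-998* mutant discs (genotype w; mir-998[exc222], homozygous) against wild type discs (w1118), with 3 arrays for each genotype. Larvae were in the wandering stage at the end of larval life, and flies of both genotypes were kept on standard food at 25°C and carry a mutant *white* gene. The allele is a single imprecise excision that left a piece of a *P* element inside the *mir-998* hairpin, and the whole animal is mutant. The sources used here do not say whether the mutant and w1118 stocks share a genetic background. Strain differences and the loss of *mir-998* therefore cannot be told apart in this comparison. The number of discs in a sample and the sex of the larvae are not given in the sources used here. The labels call the arrays biological replicates and name no separate crosses or animals, and a p-value then covers only how far these arrays vary, some of which can be technical.

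In this network E2F proteins bind DNA together with their partner Dp, and the pocket proteins Rbf and Rbf2, the fly relatives of pRB, hold them in check. E2f1 activates genes of S phase, while E2f2 mainly represses. Cyclin D with Cdk4, and Cyclin E with Cdk2, phosphorylate Rbf and free E2F at the G1/S transition, and Dacapo (*dap*), a CIP/KIP inhibitor, blocks Cyclin E and Cdk2. Mip120 and Mip130 are core subunits of the dREAM complex, in which E2F, Dp and pocket proteins silence genes. In the eye disc, cells stop in G1 in the morphogenetic furrow, and some of them enter S phase once more in the second mitotic wave behind it.

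The microRNA that is lost in the mutant lies in an intron of *dE2f1*, on chromosome arm 3R, which ties it to this network by position. Its sequence is shown because the paper detected no mature miR-998 in the mutant. It was copied from the insert of the study's *mir-998* expression construct, as a stretch whose ends were set around the seed. The stretch has 21 bases from 5′ to 3′, with the seed (bases 2 to 8, which pair with target mRNAs) in capitals.
mir-998: tAGCACCAtgagattcagctc

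Expression is given on the log2 scale, as 1 RMA value for each probe set and array, so a difference of 1 is a 2-fold difference. Each of the 9 genes is read by 1 probe set. Those of *CycE*, *CycD* and *Cdk4* carry the suffix s, which marks probes shared by more than 1 transcript, and that of *Dp* carries the suffix a, for several transcripts of 1 gene. All 54 values of the 9 genes lay between 7.63 and 10.21, far above the 3.63 to 3.72 of the bacterial *trp* control probe sets. Levels of different genes were not compared, since each probe set has its own brightness. The genotypes were compared with limma over 18769 probe sets, mutant minus wild type, and a gene was called at a Benjamini-Hochberg adjusted p at or under 0.05. With 3 arrays against 3, an exact permutation test cannot give a p below 0.1. In bulk discs, fewer cells of a type and less RNA per cell cannot be told apart.

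Of the 14 measured eye disc markers, such as *eya*, *so*, *ato* and *elav*, none fell under 7.76 on any array. Their mean was 10.39 to 10.51 on the mutant arrays, against 9.90 to 10.50 on the wild type arrays, where replicate 3 was lowest. Markers listed for other tissues and cell types had unequal levels between arrays, and the source of their RNA was not tested. The mean of 8 fat body markers was 7.66, 6.03 and 5.51 in mutant replicates 1, 2 and 3, against 7.82, 6.50 and 5.78 in wild type replicates 1, 2 and 3. The mean of 11 salivary gland markers was 8.62 to 11.35 in the mutant, against 8.95 to 10.85 in wild type. The mean of 13 hemocyte markers was 8.28 to 8.58 in the mutant, against 7.49 to 8.08 in wild type. The mean of 11 muscle markers was 9.63 to 10 in the mutant, against 9.96 to 10.31 in wild type. The mean of 9 brain and glia markers was 8.26 to 8.38 in the mutant, against 8.09 to 8.22 in wild type. The hemocyte and the brain and glia means were thus higher, without overlap, in the mutant. Of the 9 brain and glia markers taken singly, 0 were without overlap, and the log2 change was positive for 7 and negative for 2. Of the 13 hemocyte markers, 6 were higher without overlap (*lz* among them, which is also an eye disc marker), beside 7.97% of all probe sets. *NimC1*, a phagocytosis receptor gene, was the 1 called higher (fold 3.12, adjusted p = 0.0369, limma), beside 0.783% of all probe sets. The muscle markers went the other way, with a negative log2 change for 10 of 11 (median -0.31). Of these markers 5 were lower without overlap and 0 called, beside 8.07% and 0.815% of all probe sets.

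None of the 9 regulators was called in the *mir-998* mutant by limma, and 0 had an unadjusted p under 0.05. Over all probe sets 1.6% were called (0.783% higher and 0.815% lower) and 11.8% had an unadjusted p under 0.05, so a count of 0 in 9 is close to this background. The log2 change was above 0 for 4 genes, below 0 for 4 and exactly 0 for *E2f2*. Its median was 0.00, as it was over all probe sets. For 9 of 9 genes the 95% interval held no change of 1 log2 unit or more, which is true of 94% of all probe sets. The precision differed between the genes, with standard errors from 0.09 for *E2f2* and *mip120* to 0.27 for *mip130*.

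**Figure D1:**
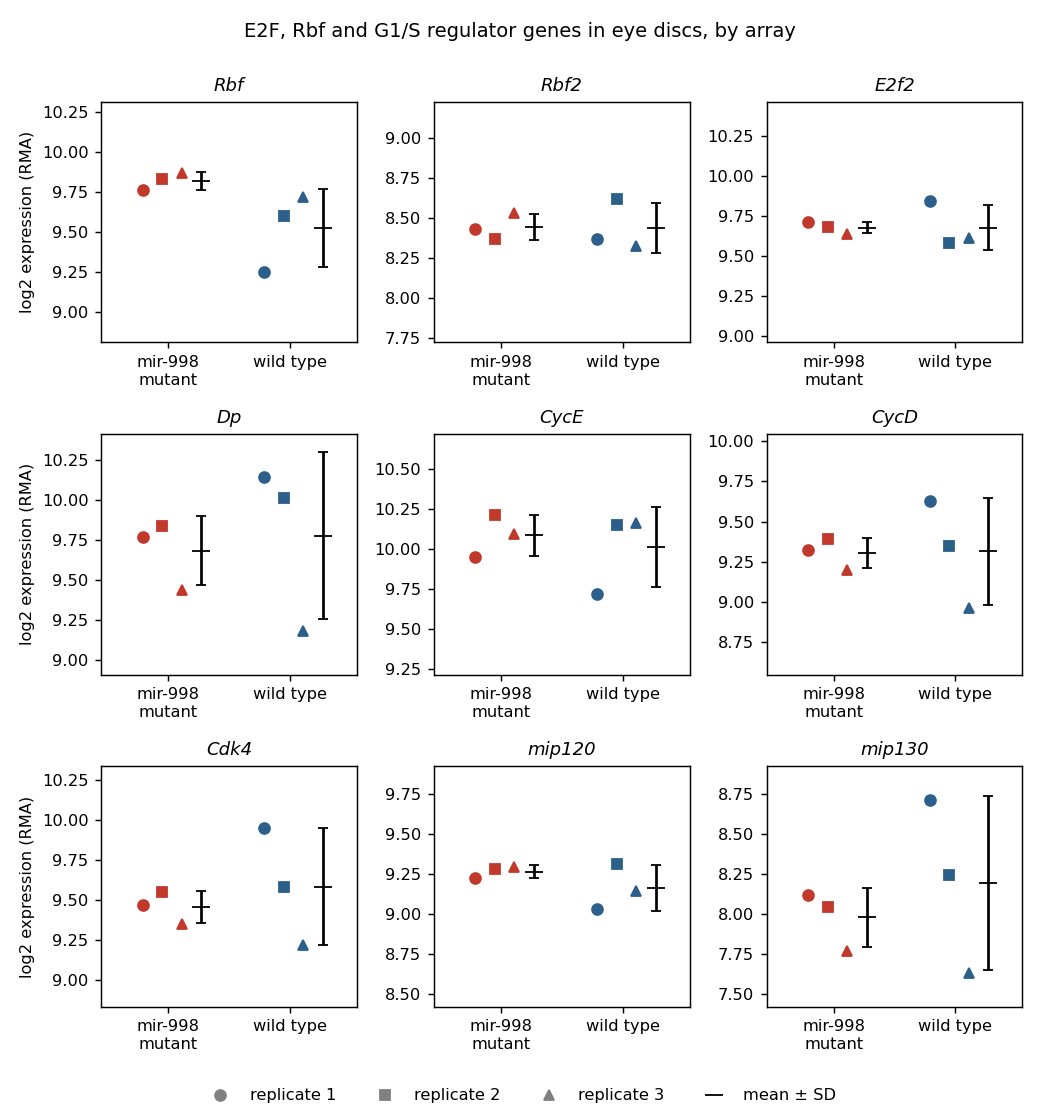
Log2 expression (RMA) of each regulator on the 3 *mir-998* mutant arrays (left in each panel) and the 3 wild type arrays (right), with each replicate as its own symbol and the mean ± SD beside them. Every panel spans 1.5 log2 units; only *Rbf* has no overlap between genotypes (it overlaps after a further quantile normalization), and the wild type points are spread wider than the mutant points for all 9 genes.

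*Rbf*, the gene of the main fly pocket protein, stood apart from the other regulators in that its genotypes did not overlap. Its log2 values were 9.76, 9.83 and 9.87 in mutant discs, against 9.25, 9.60 and 9.72 in wild type discs. The lowest mutant array lay just above wild type replicate 3, and wild type replicate 1 lay below all others. *Rbf* averaged 9.82 ± 0.06 in the mutant and 9.52 ± 0.24 in wild type (SD, n = 3 each), a fold of 1.23 (95% interval 0.995 to 1.52) that did not pass limma (adjusted p = 0.437). Of all probe sets 16% had no overlap between genotypes (7.97% with the mutant higher and 8.07% with it lower), so 1 gene of 9 is no more than this background. The difference leaned on 1 array, with a log2 change of 0.16 without wild type replicate 1. When the arrays were quantile normalized once more, *Rbf* overlapped too, and 0 of 9 genes were left without overlap. With the mean of the fat body markers as a covariate the log2 change of *Rbf* was 0.26 (standard error 0.09, adjusted p = 0.30, limma), and with that of the salivary gland markers it was 0.33 (standard error 0.13, adjusted p = 0.511, limma). The part of the hemocyte, brain and glia, and eye disc markers was not tested.

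The genes nearest to *Rbf* over the 6 arrays, among 11981 others, were *Snrk*, a protein kinase gene, *sas*, which encodes a cell surface receptor, and *lncRNA:CR42549*. Likeness was the root mean square difference between log2 values centred on each gene's own mean, and it was 0.0263, 0.0345 and 0.0355 log2 units for the 3 genes. *Snrk* had 9.93, 10.04 and 10.05 in the mutant, against 9.39, 9.76 and 9.85 in wild type. Like *Rbf*, none of the 3 genes passed limma (adjusted p of 0.359 to 0.496).

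*Rbf2*, the second pocket protein gene, averaged 8.44 in the mutant and 8.44 in wild type, rounded to 2 decimals. Its log2 values were 8.43, 8.37 and 8.53 in the mutant, against 8.37, 8.62 and 8.33 in wild type, and the wild type arrays enclosed the mutant ones. The fold was 1 (95% interval 0.853 to 1.18; adjusted p = 0.991, limma).

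*E2f2*, the gene of the repressor E2F, varied little between arrays. It had 9.71, 9.68 and 9.64 in the mutant, against 9.84, 9.58 and 9.61 in wild type. Both genotypes averaged 9.68, with an SD of 0.04 in the mutant and 0.14 in wild type (n = 3 each), and the 95% interval of the fold was 0.866 to 1.15 (adjusted p = 1, limma). *Dp*, which encodes the common partner of both E2F proteins, varied far more. It had 9.77, 9.84 and 9.44 in the mutant, against 10.14, 10.01 and 9.18 in wild type. The wild type arrays lay on either side of all 3 mutant arrays. *Dp* averaged 9.68 ± 0.21 in the mutant and 9.78 ± 0.52 in wild type (SD, n = 3 each), a fold of 0.937 with the wide interval of 0.607 to 1.45 (adjusted p = 0.95, limma). Its log2 change of -0.09 became -0.39 without wild type replicate 3 and 0.09 without wild type replicate 1 (adjusted p of 0.238 and 0.942, limma), and it was also above 0 without wild type replicate 2 (0.02) or mutant replicate 3 (0.03).

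Among the G1 cyclins, *CycE*, whose product drives entry into S phase with Cdk2, had 9.95, 10.21 and 10.09 in the mutant, against 9.72, 10.15 and 10.16 in wild type. Only wild type replicate 1 lay outside the range of the mutant arrays. The fold was 1.05 (95% interval 0.834 to 1.33; adjusted p = 0.918, limma), and without wild type replicate 1 the log2 change of 0.07 turned to -0.07. *CycD* had 9.32, 9.39 and 9.20 in the mutant, against 9.63, 9.35 and 8.96 in wild type. Its means were 9.30 ± 0.10 in the mutant and 9.31 ± 0.34 in wild type (SD, n = 3 each), a fold of 0.993 (95% interval 0.751 to 1.31; adjusted p = 0.991, limma). *Cdk4*, the kinase partner of Cyclin D, had 9.47, 9.55 and 9.35 in the mutant, against 9.95, 9.58 and 9.22 in wild type. The mutant arrays of *CycD* and *Cdk4* all lay inside the wild type range. The fold of *Cdk4* was 0.916 (95% interval 0.678 to 1.24; adjusted p = 0.889, limma), and its log2 change of -0.13 turned to 0.06 without wild type replicate 1. That of *CycD* moved between -0.19 and 0.15 as single arrays were left out, with 0.15 without wild type replicate 1.

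The 2 dREAM subunit genes differed in their spread. *mip120* had 9.22, 9.28 and 9.29 in the mutant, against 9.03, 9.31 and 9.14 in wild type, a fold of 1.07 (95% interval 0.931 to 1.24; adjusted p = 0.767, limma). Its genotypes overlapped because of wild type replicate 2 alone, which lay above all mutant arrays. *mip130* had 8.12, 8.04 and 7.77 in the mutant, against 8.71, 8.24 and 7.63 in wild type. Its wild type arrays covered 1.08 log2 units and the mutant arrays 0.35. *mip130* averaged 7.98 ± 0.18 in the mutant and 8.19 ± 0.54 in wild type (SD, n = 3 each), a fold of 0.861 (95% interval 0.553 to 1.34; adjusted p = 0.862, limma). Without wild type replicate 1 its log2 change of -0.22 turned to 0.04.

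**Figure D2:**
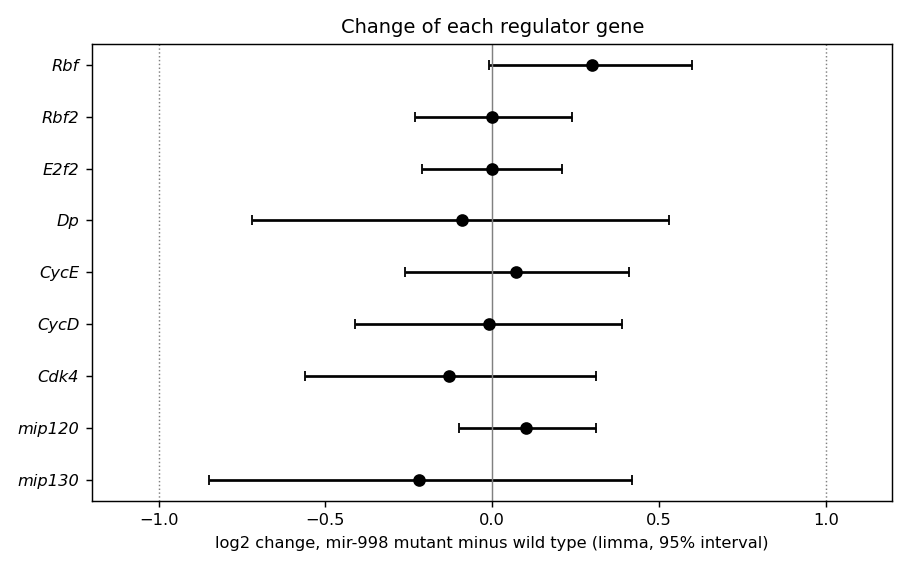
Log2 change of each regulator, *mir-998* mutant minus wild type, from limma (points) with its 95% interval (bars); dotted lines mark 1 log2 unit on either side of 0. The interval of every gene holds 0, *Rbf* only just (-0.01 to 0.60), and those of *Dp* and *mip130* are the widest.

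The spread within a genotype was the larger source of difference for several regulators. The SD over the 3 arrays ran from 0.04 to 0.21 in the mutant and from 0.14 to 0.54 in wild type, and it was larger in wild type for 9 of 9 genes, as for 70.3% of all probe sets. *Dp*, *CycD*, *Cdk4* and *mip130* shared 1 pattern, which was picked out after their values were seen and has no test. In each of these 4 genes wild type replicate 1 was the highest and replicate 3 the lowest of its genotype, and replicate 3 was also the lowest of the mutant arrays. The wild type order alone occurred in 19.5% of all probe sets, and together with the mutant one in 10.9%. A stricter order, with replicate 1 also highest in the mutant, held among these 4 only for *mip130*. In the lists described below it held for 7 of 26 E2F targets and 6 of 22 other cyclins and kinases, *Cdk12* among them. It also held for 1 of 11 turnover genes and 1 of 4 other complex genes. The share of this stricter order over all probe sets was not counted. It cannot exceed the 10.9% of the looser order, which contains it. Wild type replicate 1 lay above its genotype mean by 0.36 for *Dp*, 0.32 for *CycD*, 0.37 for *Cdk4* and 0.52 for *mip130*, and wild type replicate 3 had deviations of -0.60, -0.35, -0.36 and -0.56 from it for the same genes. The mutant arrays held to a narrower range, with deviations from -0.24 to 0.16 in these genes. The 4 other measured genes of dREAM and related complexes were mixed. *mip40* and *lin-52* had deviations of 0.50 and 0.42 in wild type replicate 1 and of -0.54 and -0.43 in wild type replicate 3, the gene of a histone-binding chromatin assembly subunit had 0.17 and -0.17 in the same arrays, and *l(3)mbt* ran the other way with -0.15 and 0.09. Both *lin-52* and *l(3)mbt* were named after their values were seen.

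*Rbf*, *CycE* and *mip120* ran the other way in wild type replicate 1. It was their lowest array, with deviations of -0.27, -0.29 and -0.13 from the wild type mean, whereas it was the highest wild type array for *E2f2* (0.16). Over the members, wild type replicate 1 was the highest of its genotype for 5 genes and the lowest for 3, against 33% and 33.9% of all probe sets. The mean of the 8 fat body markers was also highest in replicate 1 and lowest in replicate 3 of both genotypes. That order held for 5 of the 8 (*Fbp1*, *Fbp2*, *Lsp2*, *apolpp* and *Obp99b*), each of which covered at least 2.53 log2 units within a genotype. It did not hold for *Yp1*, *Yp2* and *Npc2h*, which were nearly flat and covered at most 0.28 log2 units. Since the 4 regulators were picked for a similar order, this is a description, and the part of fat body RNA in their spread was not tested. With the mean of these markers in the fit, standard errors went from 0.26 to 0.21 for *Dp* and from 0.17 to 0.13 for *CycD*. They went from 0.18 to 0.14 for *Cdk4* and from 0.27 to 0.17 for *mip130*. Outside these 4 they also fell for *Rbf* (0.13 to 0.09) and *CycE* (0.14 to 0.10). None of the 4 genes passed limma with or without these markers (adjusted p of 0.844 to 0.987 with them). That p-value concerns the genotype difference and not the spread. The part of the eye disc markers, whose mean was lowest in wild type replicate 3, was not tested.

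**Figure D3:**
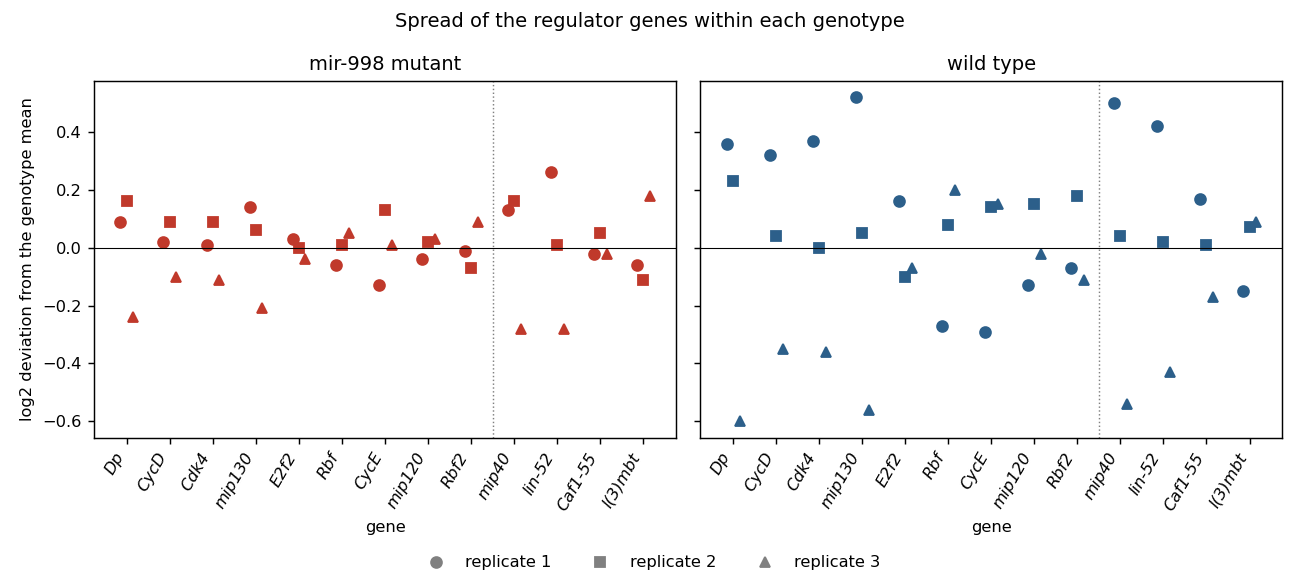
Deviation of each array from the mean of its genotype (log2 units) for the 9 regulators and, right of the dotted line, the 4 other measured genes of dREAM and related complexes, with *mir-998* mutant arrays in the left panel and wild type arrays in the right. In wild type, replicate 1 (circle) is the highest and replicate 3 (triangle) the lowest point of *Dp*, *CycD*, *Cdk4* and *mip130*, while replicate 1 is the lowest of *Rbf* and *CycE* (-0.27 and -0.29).

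Genes that act with these regulators were counted in 4 lists. Of the other genes of dREAM and related E2F complexes, 4 of 6 were measured and none was called by limma (0 had an unadjusted p under 0.05), with a median log2 change of -0.02. *mip40* stood at 0.15 (standard error 0.27), and the gene of a histone-binding chromatin assembly subunit at -0.05 (standard error 0.10). Of 33 E2F target genes of the G1/S transition and S phase, 26 were measured and none was called, 3 having an unadjusted p under 0.05 (11.8% of all probe sets). The log2 change was positive for 22 of the 26 and negative for 4, with a median of 0.07 beside 0.00 over all probe sets, and none exceeded 0.23 in size. The change was positive for 21 of them after another quantile normalization and for 22 with array medians subtracted. The eye disc markers leaned the same way and further, with a positive change for 13 of 14 and a median of 0.24. Wild type replicate 3 was the lowest array of both lists, with E2F target means of 9.46, 9.40 and 9.43 in the mutant, against 9.38, 9.43 and 9.26 in wild type, and the part of the eye disc markers in this lean was not tested. This list shares *Cdk2* with the list of cyclins and kinases.

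*Mcm3*, a subunit of the replicative helicase, had the smallest p among the E2F targets. It had 10.53, 10.52 and 10.61 in the mutant, against 10.30, 10.30 and 10.37 in wild type, without overlap. The fold was 1.17 (95% interval 1.06 to 1.30), which limma did not call over all probe sets (adjusted p = 0.192). *dpa*, which encodes another subunit of this helicase, had 10.06, 10.14 and 10.11 in the mutant, against 9.83, 10 and 9.93 in wild type (fold 1.14, adjusted p = 0.369, limma). It too was without overlap. Of the 26 E2F targets 3 were higher and 0 lower without overlap, beside 7.97% and 8.07% of all probe sets.

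**Figure D4:**
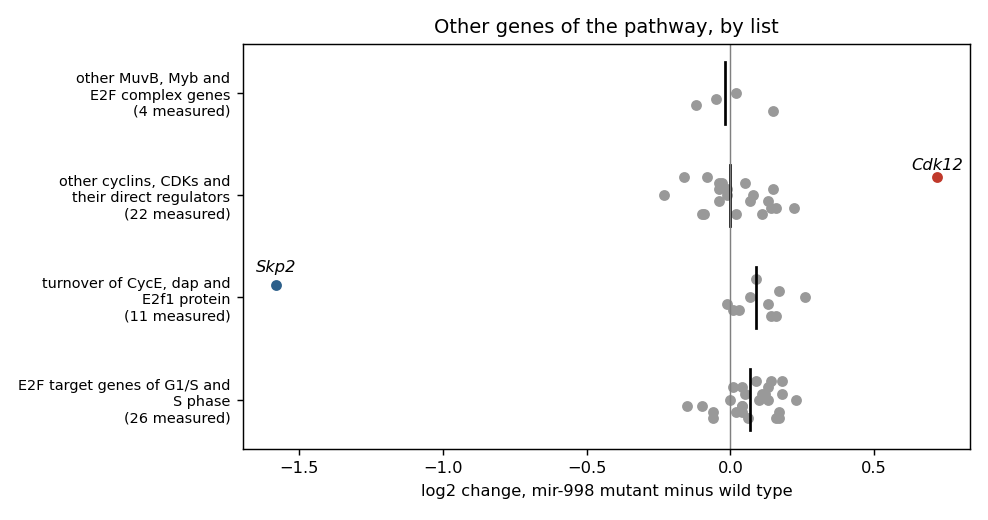
Log2 change, *mir-998* mutant minus wild type, of each measured gene in the 4 lists; grey points were not called by limma, the red point was called higher and the blue point lower, and black bars mark the list medians. *Skp2* (-1.58) and *Cdk12* (0.72) lie away from all other points, which stay between -0.23 and 0.26.

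In the list for turnover of Cyclin E, Dacapo and E2f1 protein, 11 of 11 genes were measured. Of these, 0 were called higher and 1, *Skp2*, lower, beside 0.783% and 0.815% of all probe sets. *Skp2* encodes an F-box subunit of an SCF ubiquitin ligase, which in mammals marks the CIP/KIP inhibitor p27 for destruction. It had 8.10, 8.56 and 8.40 in mutant discs, against 9.85, 9.97 and 9.98 in wild type discs. Every mutant array lay more than 1 log2 unit below every wild type array. *Skp2* fell to 8.35 ± 0.23 in the mutant, against 9.93 ± 0.07 in wild type (SD, n = 3 each), a fold of 0.334 (95% interval 0.272 to 0.411; adjusted p = 0.00267, limma). The call held in 15 of 15 alternatives, at adjusted p-values of 0.00103 to 0.0237 and log2 changes of -1.68 to -1.45. *slmb*, which encodes an F-box protein of another SCF ligase, had the next smallest p. It stood at a log2 change of 0.26 (standard error 0.12, adjusted p = 0.465, limma). The median change of the list was 0.09, and 9 of 11 genes had a positive change. Without overlap, 3 of the 11 were higher, *slmb* among them, and 1, *Skp2*, lower, beside 7.97% and 8.07% of all probe sets.

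Of 28 other cyclins, cyclin-dependent kinases and their regulators, 22 were measured. Among them 1, *Cdk12*, was called higher and 0 lower, beside 0.783% and 0.815% of all probe sets. *Cdk12* is a kinase of RNA polymerase II, known for its part in transcription elongation. Its 1 probe set carries the suffix s. *Cdk12* had 9.45, 9.44 and 9.16 in the mutant, against 8.71, 8.70 and 8.49 in wild type, so that the genotypes did not overlap. The fold was 1.64 (95% interval 1.37 to 1.97; adjusted p = 0.0319, limma). The call of *Cdk12* ended in 5 of the 6 fits that left out 1 array (adjusted p of 0.0523 to 0.163) and held without mutant replicate 3, while the log2 change of 0.72 stayed between 0.64 and 0.81 in these 6 fits. It also ended when the mean of the salivary gland markers entered the fit (log2 change 0.72, adjusted p = 0.0976, limma). *CycB*, a mitotic cyclin, had 11.29, 11.41 and 11.45 in the mutant, against 11.16, 11.30 and 11.02 in wild type (fold 1.17, adjusted p = 0.418, limma). *Cdk2*, named as the partner of Cyclin E and not for a small p-value, was not called. The median change of the list was 0.00. Without overlap, 3 of the 22 were higher and 0 lower, beside 7.97% and 8.07% of all probe sets. Of these 4 lists together, *Skp2* and *Cdk12* were the only genes called, beside 1.6% of all probe sets. The counts are not read as a result about the lists.

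**Figure D5:**
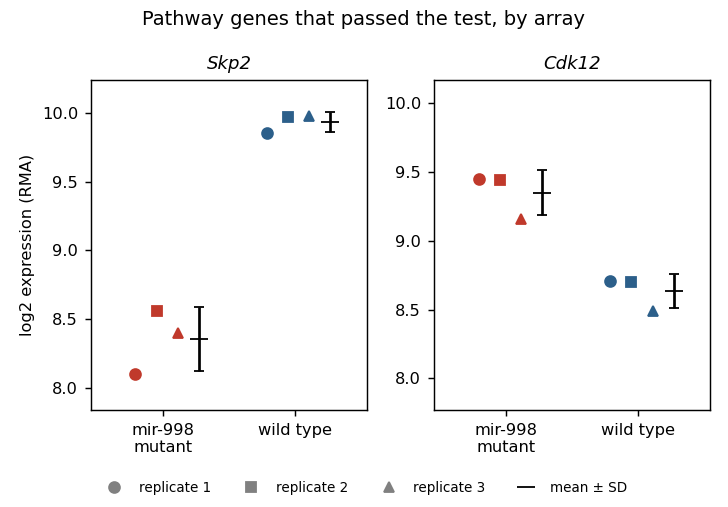
Log2 expression (RMA) of *Skp2* and *Cdk12* on the 3 *mir-998* mutant arrays (left in each panel) and the 3 wild type arrays (right), with replicates as symbols and the mean ± SD beside them; each panel spans 2.4 log2 units. *Skp2* sits at 8.10 to 8.56 in the mutant, against 9.85 to 9.98 in wild type, and *Cdk12* at 9.16 to 9.45, against 8.49 to 8.71.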

How the data were processed

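The authors deposited log2 expression values from 6 Affymetrix arrays, computed by RMA in the affy package, that is, background correction, quantile normalization and summary of the probes of each probe set. Values have 2 decimals, and raw intensities were not used here. Of 18952 probe sets 183 controls were left out, and 18769 entered a linear model, mutant minus wild type (limma 3.58.1 under R 4.3.3, with moderated variances), with no covariate and Benjamini-Hochberg adjustment over all of them. Genes were named through the platform annotation, with symbols updated by RefSeq (Release 6): 13647 probe sets had 1 gene, 402 several and 4720 none. A gene with several probe sets was read from that with the highest mean. Array medians were 5.25 to 5.30, no 2 arrays held identical values, and read depth does not apply: the number of arrays limits the precision. The members, the 4 pathway lists and the 6 marker lists (eye disc, salivary gland, fat body, hemocyte, muscle, brain and glia) were chosen with earlier results of these data known. Named genes are all members, the called genes and the 2 smallest p-values of each pathway list, and the 3 genes nearest to *Rbf*. Others are said to be so, and markers are named from their lists. The fit was tested on simulated data. Alternatives changed the normalization, variance model, dim filter, replicate block, covariates, thresholds and arrays.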

Additional observations from a re-analysis of the deposited data

How the results depend on the processing

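The count of 0 called regulators was the same in 18 of 18 alternatives, and none of the 9 was called in any of them. Small changes of uncalled genes turned direction: *Rbf2* to -0.09 with array weights and to 0.00 with the fat body covariate, and *CycD* to 0.02 with medians subtracted and to 0.04 with the fat body covariate. With 1 array left out, log2 changes ran from 0.16 to 0.40 for *Rbf*, -0.05 to 0.09 for *Rbf2*, -0.05 to 0.08 for *E2f2*, -0.39 to 0.09 for *Dp*, -0.07 to 0.15 for *CycE*, -0.19 to 0.15 for *CycD*, -0.31 to 0.06 for *Cdk4*, 0.04 to 0.18 for *mip120* and -0.50 to 0.04 for *mip130*. Genes without overlap numbered 1, and 0 after another quantile normalization. Called cyclins and kinases numbered 1, and 0 to 1 with 1 array left out and 0 with the salivary gland covariate; the cause was not tested. The labels do not say whether arrays with the same replicate number form pairs. Same-number correlations of deviations were 0.19, -0.23 and 0.29 over 18769 probe sets, which does not settle it. A replicate block lowered the standard error from 0.26 to 0.14 for *Dp* and from 0.27 to 0.15 for *mip130*. Among the members it rose only for *Rbf2* (0.10 to 0.11). With the replicate block *Rbf* stood at 0.30 (adjusted p = 0.293, limma), no member was called, and 300 probe sets passed with and without it. *dap* and *dE2f1* were not analysed here. The 95% intervals of the fold limit what these arrays resolve, from 0.866 to 1.15 for *E2f2* to 0.553 to 1.34 for *mip130*.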
